A study of Homo sapiens with 6 samples.

Results

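The genes described here encode the machinery of mitosis, and they were followed after METTL3 silencing in ARPE-19, an established line of human RPE (retinal pigment epithelium). They were chosen by name: protein-coding genes whose symbol begins with KIF or CENP, or with the root of a mitotic kinase, B-type cyclin, CDC25, CDCA, spindle checkpoint, kinetochore or cytokinesis gene. In the deposited table, which holds 7758 genes, 49 met this rule. A name does not make a mitotic gene, so the 49 were divided by known role: 24 act in mitosis itself, 19 are kinesins known mainly for transport, cilia or microtubule control between divisions, or bind such kinesins, and 6 are other matches to the name, most of them with main roles outside mitosis.

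Both groups were ARPE-19 cells grown in DMEM with 10% serum and stimulated with lipopolysaccharide (LPS), a component of bacterial cell walls, at 1 μg/ml for 24 h. The sh-METTL3 cells carried a lentiviral short hairpin RNA against METTL3, the catalytic subunit that writes N6-methyladenosine into RNA, and the sh-Control cells carried a scrambled hairpin with the genotype label Scramble. Per the study's methods, drug selection with puromycin or neomycin gave stable transformants. Nothing states whether the 3 libraries per group were separate infections, so p-values measure only the spread between these libraries. There was no unstimulated group.

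Mitosis begins when B-type cyclins activate CDK1, with Aurora and Polo kinases building the spindle. The spindle checkpoint, assembled on kinetochores at the centromeres, holds back the anaphase-promoting complex until every chromosome is attached, after which CDC20 turns that complex on and the cyclins are destroyed. Most genes of this machinery are transcribed late in the cell cycle, so in proliferating RPE cells in culture their mRNAs are known to track the dividing fraction. In bulk RNA a larger or smaller share of cells in G2 and mitosis cannot be told apart from more or less mRNA per such cell. The study itself reported decreased proliferation of METTL3-silenced ARPE-19 cells, with or without LPS, by a viability assay and by labelling of new DNA.

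The table limits what can be asked. It holds only genes with a deposited adjusted p of at most 0.05, which is 33.8% of 22977 tested, and a gene outside it was not analysed here. Of 117 annotated protein-coding symbols that meet the naming rule, 49 (41.9%) were listed, against 6740 of 19951 (33.8%) of all protein-coding genes. The listed share was 5 of 7 for mitotic kinases and the passenger complex and 5 of 8 for cyclins, phosphatases and CDC20. It was 19 of 31 for the other kinesins, 5 of 18 for centromere proteins and 4 of 14 for mitotic kinesins. It was 3 of 10 for outer kinetochore and checkpoint genes, 2 of 9 for spindle, chromosome and cytokinesis genes and 6 of 18 for the other name matches. CCNA2, TOP2A, TPX2, AURKB, NDC80, TTK, ASPM, ANLN, PRC1 and KIF11 are among those not analysed here, as are the textbook proliferation genes MKI67, CDK1, FOXM1 and MYBL2.

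Values are read counts divided by 1 size factor per library, called scaled counts here, and between 10898434 and 17750052 reads fell on listed genes in each library. METTL3 itself was read at 1154, 1108 and 1091 in the sh-Control libraries and at 966, 1001 and 765 in the sh-METTL3 libraries. All 3 silenced libraries were below all 3 controls, by a log2 fold change of -0.30 ± 0.10 (SE; adjusted p = 0.032 by limma with Benjamini-Hochberg adjustment, between 0.011 and 0.26 over the alternative fits). The third silenced library was the lowest, and without it the log2 fold change was -0.18. Leaving out any 1 of the 3 controls moved the adjusted p past the threshold of 0.05, to 0.124, 0.0958 and 0.0684. Among 14 RPE markers, 7 were listed, of which MITF, KRT8, KRT18 and LRAT were higher and BEST1, PMEL and SERPINF1 lower, and RPE65, RLBP1 and TYR were not analysed here. Of 8 immune markers 3 were listed and PTPRC was not: CD14 fell from 25.3 to 1.31 and ITGAM from 85.0 to 9.85 scaled counts, and CSF1R rose from 79.9 to 159. None of 5 endothelial markers was listed.

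The third sh-METTL3 library also stood apart in the mitotic genes, before any comparison of groups. In 22 of the 24 genes with mitotic roles it was below both other sh-METTL3 libraries, against 38.9% of all listed genes. Its scaled count was 0.635 times the mean of the other 2 in the median mitotic gene, with quartiles of 0.587 and 0.689, while the median over all listed genes was 0.999 with quartiles of 0.902 and 1.11. The 2 exceptions were CENPB and CENPT. Other centromere proteins were not exempt, as CENPK stood at 0.589 and CENPL at 0.923 times the mean of the other 2 libraries. The other kinesins did not share the deficit, being below both in 5 of 19 with a median ratio of 1.06. In the controls the third library was below both others in 11 of the 24, with a median ratio of 0.978. The group results on the other 22 mitotic genes below therefore include a silenced replicate 3 that lies under both others, and log2 fold changes without it are given. It differed over all listed genes too. On their second principal component, with 3.36% of the variance, it stood at 22.0 and the other 2 sh-METTL3 libraries at -9.60 and -12.5. What set that library apart was not tested.

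**Figure D1:**
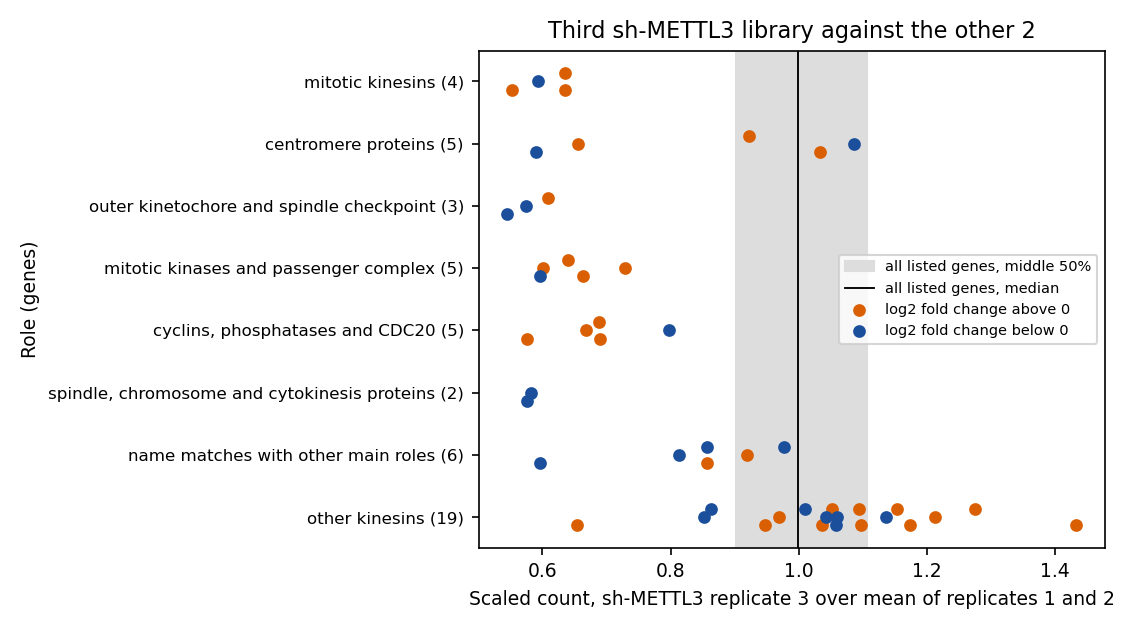
Each point is 1 gene, placed on the x axis by its scaled count in sh-METTL3 replicate 3 divided by the mean of replicates 1 and 2, in rows by role with the number of genes; the vertical line is the median of all 7758 listed genes and the grey band their middle 50%. Genes with mitotic roles lie mostly between 0.545 and 0.797 whether their log2 fold change was above 0 (orange) or below 0 (blue), and the other kinesins lie mostly near 1.

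Of the 49 genes, 26 were higher and 18 lower in sh-METTL3 at an adjusted p of 0.05 and 5 did not pass (CDCA3, CDCA8, KIF14, KIF18B and PLK4). Over all listed genes 97.9% were called, 46.6% higher and 51.3% lower, as the table was selected on the same libraries. The count of calls among the 49 is thus no result in itself. The groups did not overlap in 46 of the 49, against 98.5% of all listed genes, the exceptions being CDCA3, CDCA8 and KIF14. The median log2 fold change was 0.40, from -2.25 to 3.31, where that of all listed genes was -0.21 and that of all listed protein-coding genes -0.25. Among the 24 mitotic genes 12 rose, 7 fell and 5 did not pass, with a median of 0.45. Without the third sh-METTL3 library these counts were 15, 7 and 2, with a median of 0.61. Scaling by RLE factors raised the median of all listed genes by 0.12 on the log2 scale, and 29 of the 49 were then higher and 13 lower.

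**Figure D2:**
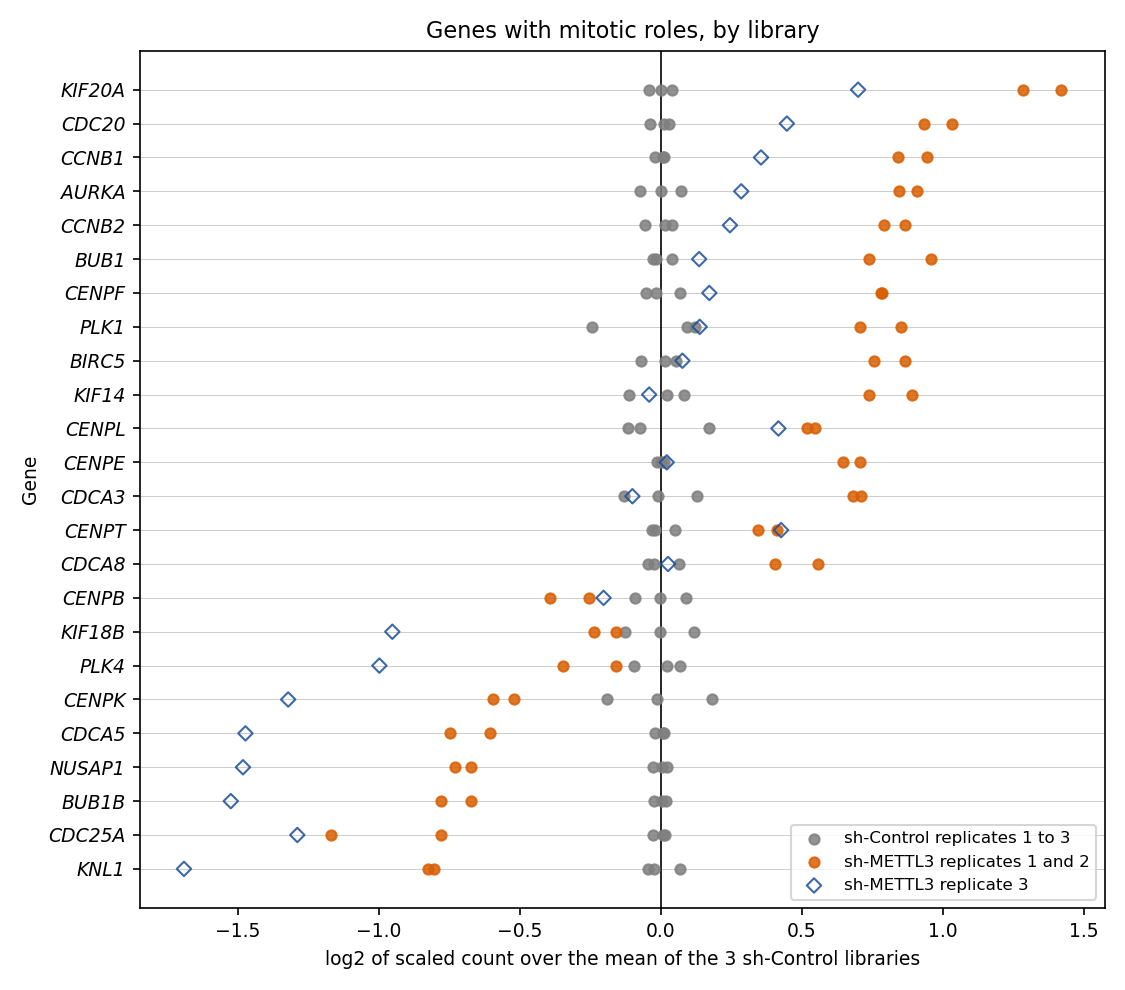
Scaled count of each of the 24 genes with mitotic roles in each library, as log2 over the mean of the 3 sh-Control libraries, ordered by log2 fold change; grey points are sh-Control, orange points sh-METTL3 replicates 1 and 2, and open diamonds sh-METTL3 replicate 3. In 15 genes the orange points lie above the controls with the diamond between them and the controls or among the controls, CENPT excepted, and in the 9 genes with a log2 fold change below 0 the diamond is the lowest point, CENPB excepted.

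Promoter sequence is shown first, because one motif was found in genes that rose and in genes that fell. Late cell cycle promoters are known for the cell cycle genes homology region (CHR), the letters TTTGAA or TTCGAA, which is bound by MuvB complexes, and for CCAAT, which is bound by NF-Y. Both were searched on both strands from 250 bases before to 50 after the start, in 1 window per gene at its farthest upstream RefSeq start, for the 40 of 49 genes with a window. E2F letters (TTTGGCGC, TTTGCCGC, TTTCGCGC and TTTCCCGC) were added after the data were seen. The stretches below are 30 bases before the RefSeq start on the strand of the gene, in GRCh38.p14 coordinates, with motif letters in capitals. They were chosen to show a CHR in genes that rose (CCNB2, PLK1, CDC20) or did not pass (CDCA8), CCAAT in the B cyclin and kinesin with strong rises (CCNB1, KIF20A), and CHR or E2F letters in genes that fell. The RefSeq starts of these 10 genes lay 15 to 1233 bases from the starts in the deposited table, and those of all 40 lay 0 to 10513 bases from them, KIFAP3 being the farthest.
CCNB2, chr15:59105105-59105134, plus strand: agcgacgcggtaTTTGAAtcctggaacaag
PLK1, chr16:23678848-23678877, plus strand: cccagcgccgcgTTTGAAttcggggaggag
CDC20, chr1:43358908-43358937, plus strand: ggttggatTTTGAAggagCCAATaggcgct
CDCA8, chr1:37692482-37692511, plus strand: tgactgtggagTTTGAATTGGgtggcggtt
CCNB1, chr5:69167082-69167111, plus strand: tgccacgaacaggCCAATaaggagggagca
KIF20A, chr5:138179032-138179061, plus strand: gcttccctatctgATTGGccgaacgaacgc
BUB1B, chr15:40161034-40161063, plus strand: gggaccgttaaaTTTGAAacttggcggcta
CDCA5, chr11:65084059-65084088, minus strand: tccTTTCCCGCagggcgggtaaTTCGAAcg
CDC25A, chr3:48188450-48188479, minus strand: actgATTGGtggattccgTTTGGCGCcaac
CDCA7, chr2:173354796-173354825, plus strand: tgtgtcccaacGCGGGAAAgacagcccgag
In CDCA8 the CHR and a reversed CCAAT share a base. In KIF20A and CDC25A the CCAAT lies on the other strand and reads ATTGG, and in CDCA7 the E2F letters do.

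Over the 27305 genes with a window, 16.7% held a CHR, 35.7% a CCAAT, 6.63% both and 3.34% the E2F letters. Of the 20 mitotic genes with a window 9 were called higher, 6 were called lower and 5 did not pass. A CHR was present in 13 of the 20, in 5 of the 9 called higher, 3 of the 6 called lower and all 5 that did not pass. It was in none of the 14 other kinesins. CCAAT was present in 7 of the 9 mitotic genes called higher, 3 of the 6 called lower and 4 of the 5 that did not pass, and in 3 of the 14 other kinesins. CHR and CCAAT occurred together in 5 of the 9, 1 of the 6 and 4 of the 5. The E2F letters were in none of the 9 called higher or the 5 that did not pass, in CDC25A, NUSAP1 and CDCA5 of the 6 called lower, and also in CDCA7. A match is a string of letters and was not tested for binding, and no promoter of AURKA, BIRC5, KNL1, CENPL, KIF5A, KIF21B, KIFC2, KIFC3 or KIF1BP was searched.

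CDC20, the activator of the anaphase-promoting complex (chr1:43358955-43363203, plus strand, GRCh38), and the B-type cyclins CCNB1 and CCNB2 rose. CDC20 was read at 675, 683 and 652 in the controls and at 1371, 1280 and 914 in sh-METTL3. The lowest silenced library was well above the highest control, and the mean rose 1.77-fold (log2 fold change 0.80 ± 0.13, SE; limma adjusted p = 0.00076). CCNB1, the main cyclin partner of CDK1 (chr5:69167010-69178245), went from 1038, 1041 and 1017 to 1985, 1848 and 1320. The controls averaged 1032 ± 12.9 and the silenced libraries, which were farther from each other, 1718 ± 351 (SD, n = 3). The log2 fold change was 0.71 ± 0.13 (adjusted p = 0.0014). Its relative CCNB2, which is found at the Golgi, read 516, 542 and 551 and then 977, 928 and 636, a log2 fold change of 0.63 ± 0.14 (adjusted p = 0.0052). For all 3 genes the third silenced library remained above each control, and without it the log2 fold changes were 0.98, 0.89 and 0.83.

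CDC25A, the phosphatase that removes inhibitory phosphate from cyclin-dependent kinases and is best known at the start of S phase, went the other way. Its controls read 349, 338 and 347 and its silenced libraries 201, 153 and 141. The groups were far apart, with a log2 fold change of -1.07 ± 0.14 (adjusted p = 0.00019). Here the third library was only 0.797 times the other 2, and without it the log2 fold change was -0.97. CDCA3, which promotes entry into mitosis, read 391, 359 and 431 in the controls and 644, 631 and 367 in sh-METTL3. The first 2 silenced libraries were above every control and the third lay among the controls, so the log2 fold change of 0.43 ± 0.19 did not pass (adjusted p = 0.13). Without the third library it was 0.70, and the adjusted p was 0.00020, the lowest over the alternatives, which reached 0.55 and of which 6 of 17 passed.

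AURKA and PLK1, the spindle kinases in the table, were higher. AURKA, the Aurora kinase of the centrosome and spindle poles (chr20:56369389-56392337), read 507, 482 and 458 and then 906, 866 and 588. All silenced libraries exceeded all controls, and the log2 fold change was 0.68 ± 0.14 (adjusted p = 0.0041), or 0.88 without sh-METTL3 replicate 3. PLK1, the Polo kinase of mitotic entry and spindle assembly (chr16:23677656-23690367), read 620, 632 and 491 against 1049, 948 and 639. The third silenced library was barely above the highest control. The log2 fold change of 0.57 ± 0.17 passed (adjusted p = 0.022). That call was lost without sh-Control replicate 1 or 3 or sh-METTL3 replicate 1 or 2, with adjusted p up to 0.111, while it was 0.79 on the log2 scale without sh-METTL3 replicate 3. PLK4, which instead starts centriole duplication, read 400, 412 and 368 and then 353, 309 and 197. It was lower in all 3 libraries without overlap, but the log2 fold change of -0.50 ± 0.18 did not pass (adjusted p = 0.067), and it was -0.25 without sh-METTL3 replicate 3. Without sh-METTL3 replicate 1 it was -0.67 and passed (adjusted p = 0.022, in a range of 0.022 to 0.23 over the alternatives, of which 5 of 17 passed).

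BIRC5 (survivin) and CDCA8 (borealin) sit together in the chromosomal passenger complex, which targets Aurora B to centromeres. BIRC5 read 556, 542 and 510 in the controls and 906, 978 and 565 in sh-METTL3, with a log2 fold change of 0.57 ± 0.17 (adjusted p = 0.025). Its first 2 silenced libraries were 1.76 times the control mean and replicate 3 was 1.05 times that mean. The call was lost without any 1 of the 3 controls or without sh-METTL3 replicate 1 or 2 (adjusted p up to 0.122), and it was 0.81 on the log2 scale without sh-METTL3 replicate 3. CDCA8 read 458, 487 and 451 and then 685, 616 and 474, so that the third silenced library fell inside the control range. Its log2 fold change of 0.33 ± 0.12 did not pass (adjusted p = 0.073). Without the third library it was 0.48, with an adjusted p of 0.0012, where the alternatives ranged up to 0.34, and it passed in 8 of 17 alternatives in all. INCENP, the scaffold of the same complex and not one of the 49, had a log2 fold change of 0.30 that did not pass (adjusted p = 0.099). It was 0.47 without the third library and then passed (adjusted p = 0.00027, the lowest over the alternatives, which reached 0.40).

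The checkpoint genes split. BUB1, the checkpoint kinase that marks the inner centromere (chr2:110637698-110678114), was read at 771, 765 and 802 in the controls and at 1513, 1299 and 857 in sh-METTL3. All silenced libraries were higher, with a log2 fold change of 0.61 ± 0.17 (adjusted p = 0.015). The call was lost without sh-Control replicate 1 or 2 or sh-METTL3 replicate 1 or 2 (adjusted p up to 0.066), and the log2 fold change was 0.85 without sh-METTL3 replicate 3. BUB1B, whose product BubR1 inhibits CDC20 as part of the checkpoint complex (chr15:40161023-40221136), read 601, 606 and 589 and then 376, 349 and 208. KNL1, the kinetochore scaffold on which both BUB proteins dock (chr15:40594020-40664342), read 443, 409 and 416 and then 239, 242 and 131. Both fell in all 3 libraries, BUB1B by 0.99 ± 0.19 and KNL1 by 1.10 ± 0.21 on the log2 scale (adjusted p = 0.0020 for each). The third library was 0.574 and 0.545 times the other 2 in these genes, and without it the log2 fold changes were -0.72 and -0.81. A readthrough gene, BUB1B-PAK6, covers 10.2% of the exonic bases of BUB1B, and its reads could not be told apart from it there.

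NUSAP1, a microtubule-bundling protein of the spindle, and CDCA5 (sororin), which protects sister chromatid cohesion, fell as well. NUSAP1 (chr15:41332694-41381050) read 146, 144 and 141 in the controls and 86.8, 90.2 and 51.5 in sh-METTL3, with a log2 fold change of -0.95 ± 0.21 (adjusted p = 0.0058). The groups were well separated, but 62.2% of its exonic bases are also annotated in an overlapping transcript, AC087721.2, so its level is uncertain. CDCA5 (chr11:65066300-65084164) had means of 1028 ± 11.6 and 553 ± 161 (SD, n = 3) and a log2 fold change of -0.94 ± 0.18 (adjusted p = 0.0023). Without sh-METTL3 replicate 3 the values were -0.69 and -0.68.

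BUB1B, KNL1 and NUSAP1 have their centres within 1.17 Mb of each other on chromosome 15, in a stretch where nearly all listed genes were lower. Of the 79 other listed genes within 5 Mb of BUB1B 98.7% had a log2 fold change below 0, with a median of -1.08. With all 3 silenced libraries the log2 fold changes of these 3 genes, -0.99, -1.10 and -0.95, were near that median, and without replicate 3, at -0.72, -0.81 and -0.69, they were smaller in size than it. The first 2 silenced libraries stood at 0.468 times the controls in the median neighbour, and at 0.605, 0.569 and 0.616 times in BUB1B, KNL1 and NUSAP1. The third library, however, was 1.02 times the other 2 in the median neighbour of BUB1B and 0.574 times in BUB1B, so the neighbours did not share the deficit of the third library. Around CDCA5 on chromosome 11, 81.8% of 148 listed genes were lower, with a median of -0.55. CCNB2, also on chromosome 15 but elsewhere (chr15:59105078-59125045), had 59.1% of 22 neighbours lower. CDC25A on chromosome 3 had 37 of 74 neighbours lower. Copy number was not measured, and its part in these values was not tested.

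**Figure D3:**
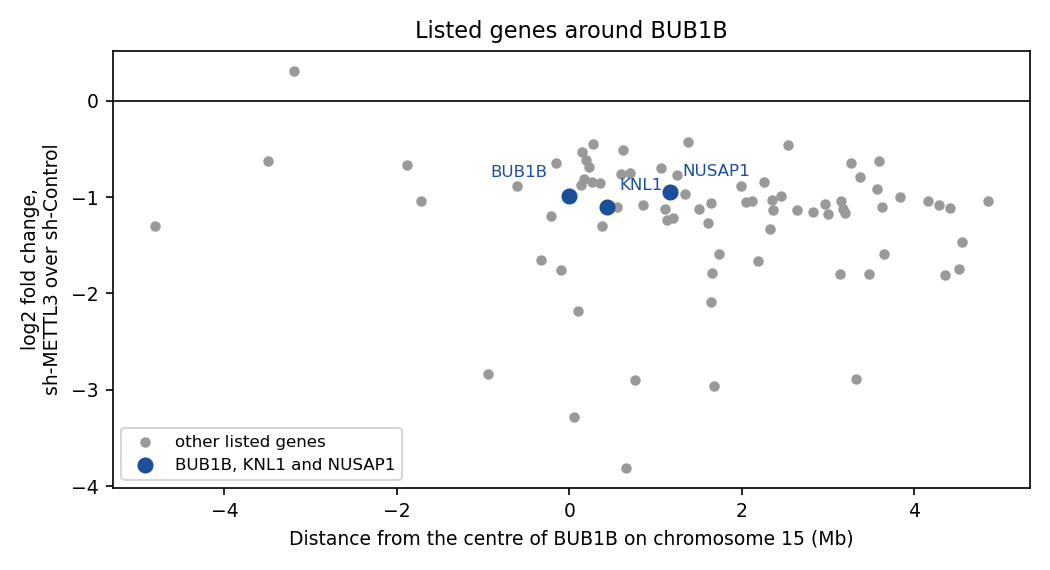
Each point is a listed gene within 5 Mb of BUB1B, with its distance from the centre of BUB1B in Mb on the x axis and its log2 fold change of sh-METTL3 over sh-Control on the y axis; blue points are BUB1B, KNL1 and NUSAP1 and grey points other genes. Of the 80 genes shown, 79 lie below 0, and the 3 blue points lie among them near -1.

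Among the motors of the spindle, KIF20A, which carries the passenger complex to the central spindle for cytokinesis (chr5:138178719-138187715), had the largest rise of all mitotic genes. It was read at 629, 666 and 648 in the controls and at 1731, 1577 and 1051 in sh-METTL3. The mean rose 2.24-fold (log2 fold change 1.13 ± 0.15, adjusted p = 0.00023), and 1.35 on the log2 scale without the third library. CENPE, the kinesin that moves chromosomes to the spindle equator, had means of 558 ± 4.88 and 784 ± 189 (SD, n = 3) and a log2 fold change of 0.46 ± 0.15 (adjusted p = 0.042). That call rested on little: the third silenced library, 567, was only just above the highest control, 563, and the call was lost without any 1 of 5 libraries, sh-METTL3 replicate 3 being the exception (0.68 without it), with adjusted p up to 0.204. KIF14, a motor of cytokinesis, had 1 silenced library inside the control range, and its log2 fold change of 0.53 ± 0.20 did not pass (adjusted p = 0.075). It was 0.81 without that library and then passed (adjusted p = 8.2e-05, the lowest over the alternatives, which reached 0.34), and it passed in 8 of 17 alternatives in all. KIF18B, which works at the plus ends of astral microtubules, read 717, 659 and 605 and then 591, 561 and 342. Its log2 fold change of -0.44 ± 0.18 did not pass (adjusted p = 0.096), and it became -0.19 without sh-METTL3 replicate 3 and -0.59 without sh-METTL3 replicate 1, where it passed (adjusted p = 0.044, in a range of 0.016 to 0.33 over the alternatives, of which 4 of 17 passed).

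Centromere proteins moved both ways. CENPF, a large protein of the outer kinetochore and nuclear envelope that builds up in G2, rose from 1848 ± 80.6 to 2813 ± 632 (log2 fold change 0.58 ± 0.14, adjusted p = 0.0079), and its log2 fold change was 0.78 without sh-METTL3 replicate 3. CENPT and CENPL, parts of the constitutive network on the centromere, rose by log2 fold changes of 0.40 ± 0.06 (adjusted p = 0.00072) and 0.50 ± 0.13 (adjusted p = 0.011), the second being lost without sh-Control replicate 2 (adjusted p = 0.052). CENPK, of the same network, fell from 495 ± 63.8 to 290 ± 80.3 (log2 fold change -0.80 ± 0.19, adjusted p = 0.0081) and was -0.55 without sh-METTL3 replicate 3. CENPB, which binds a box in alpha-satellite DNA, fell from 2958 ± 187 to 2434 ± 164, a log2 fold change of -0.28 ± 0.07 (adjusted p = 0.0079). With RLE factors CENPB was -0.16 and missed the threshold (edgeR adjusted p = 0.14). Without sh-METTL3 replicate 3 CENPT, CENPL and CENPB had 0.38, 0.54 and -0.32. Genes on the opposite strand cover 19.6% of the exonic bases of CENPT, and strand was not stated. Per kilobase of exon the controls read most from CENPB, at 1042 scaled counts, followed by CCNB1 at 403 and CDC20 at 329, and least from CENPL, at 31.4, among the 24 mitotic genes.

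The 19 other kinesins were led by changes in opposite directions, 12 higher and 7 lower, and in none of them did the groups overlap. Over all listed genes 97.9% were called and the groups did not overlap in 98.5%, so these counts are no result about the kinesins. KIF21B, a kinesin that limits microtubule growth (chr1:200969390-201023700), fell furthest of the 49. It was read at 1095, 1045 and 870 in the controls and at 227, 186 and 218 in sh-METTL3. The silenced libraries were close together at 0.209 times the control mean, and the log2 fold change was -2.25 ± 0.11 (adjusted p = 3.9e-07). Its neighbours did not go with it, since 39.1% of 46 were lower. Its paralog KIF21A, known for its part in eye muscle innervation, fell by 0.40 ± 0.10 on the log2 scale (adjusted p = 0.010). KIFC3, a minus-end motor at adherens junctions and the centrosome, went from 2702 ± 296 to 1683 ± 27.1 (log2 fold change -0.68 ± 0.08, adjusted p = 7.7e-05). Smaller falls were those of KIF7, a hedgehog regulator at the tip of the cilium (-0.35), KIF1B (-0.33), KIF2A, a microtubule depolymerase that also serves the spindle (-0.23), and KIF1BP, which binds kinesins and holds them off the microtubule (-0.20). The call of KIF7 was lost without sh-Control replicate 2 or sh-METTL3 replicate 1 or 2 (adjusted p up to 0.070), and that of KIF1BP without sh-Control replicate 2 or 3 or sh-METTL3 replicate 1 or 2 (up to 0.18). The call of KIF2A was lost without any 1 of the other libraries than sh-METTL3 replicate 1 (up to 0.16). With RLE factors KIF7 (-0.22), KIF21A (-0.26), KIF2A (-0.10) and KIF1BP (-0.08) all missed the threshold, with edgeR adjusted p of 0.12, 0.067, 0.57 and 0.76. KIF2A and KIF1BP also missed it with TMM factors and listed-gene totals. Of the neighbours of KIF2A 91.7% of 12 were lower (median log2 fold change -0.39), and of those of KIFC3 70% of 30 (-0.41). Around KIF21A, KIF7, KIF1B and KIF1BP 40% to 48.1% of the neighbours were lower. What part the region had in these falls was not tested.

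KIF5C, a conventional kinesin heavy chain (chr2:148875250-149026759), was read at 214, 207 and 161 in the controls and at 396, 405 and 461 in sh-METTL3. It rose 2.17-fold (log2 fold change 1.12 ± 0.13, adjusted p = 9.1e-05), with the third silenced library the highest. KIF3C, a kinesin-2 motor (chr2:25926596-25982749), read 1284, 1239 and 1151 and then 2221, 2160 and 2075. KIF6 read 94.1, 98.0 and 81.3 and then 177, 157 and 176. Both groups were tight, with log2 fold changes of 0.81 ± 0.06 for KIF3C (adjusted p = 4.7e-06) and 0.90 ± 0.14 for KIF6 (adjusted p = 0.00079). KIF5A and KIF1A, a second heavy chain and a carrier of synaptic vesicle precursors, rose from low levels, KIF5A from 14.1 ± 1.31 to 39.5 ± 7.52 (SD, n = 3; adjusted p by limma 0.0018) and KIF1A from 9.14 ± 5.61 to 31.3 ± 7.02 (0.011). KIF26A, a kinesin without motor activity, had 0 reads in each control and 11, 8 and 6 reads in sh-METTL3, which is at least 3.38-fold higher against a floor of 3 reads per library. Per kilobase of exon these 3 stayed far below KIF3C, at 6.32, 1.87 and 1.35 scaled counts in sh-METTL3 against 336.

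The remaining rises among these kinesins were smaller. KIFC2 (0.65 ± 0.11), KIF17, a motor of cilia (0.64 ± 0.20), and KIF16B, a carrier of endosomes (0.60 ± 0.11), each rose by over 0.5 on the log2 scale. KIF1C (0.38 ± 0.06), KIFAP3, the adaptor of kinesin-2 (0.29 ± 0.08), and KIF13A, which moves recycling endosomes and melanosome cargo (0.17 ± 0.06), rose less. The call of KIF17 was lost without any 1 of 5 libraries (adjusted p up to 0.110), sh-Control replicate 1 being the exception, that of KIF13A likewise without any 1 of 5 (up to 0.152), sh-METTL3 replicate 1 being the exception, and that of KIFAP3 without sh-Control replicate 1 or 2 (up to 0.068). Exons of FOXH1 on the opposite strand cover 17.8% of those of KIFC2.

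**Figure D4:**
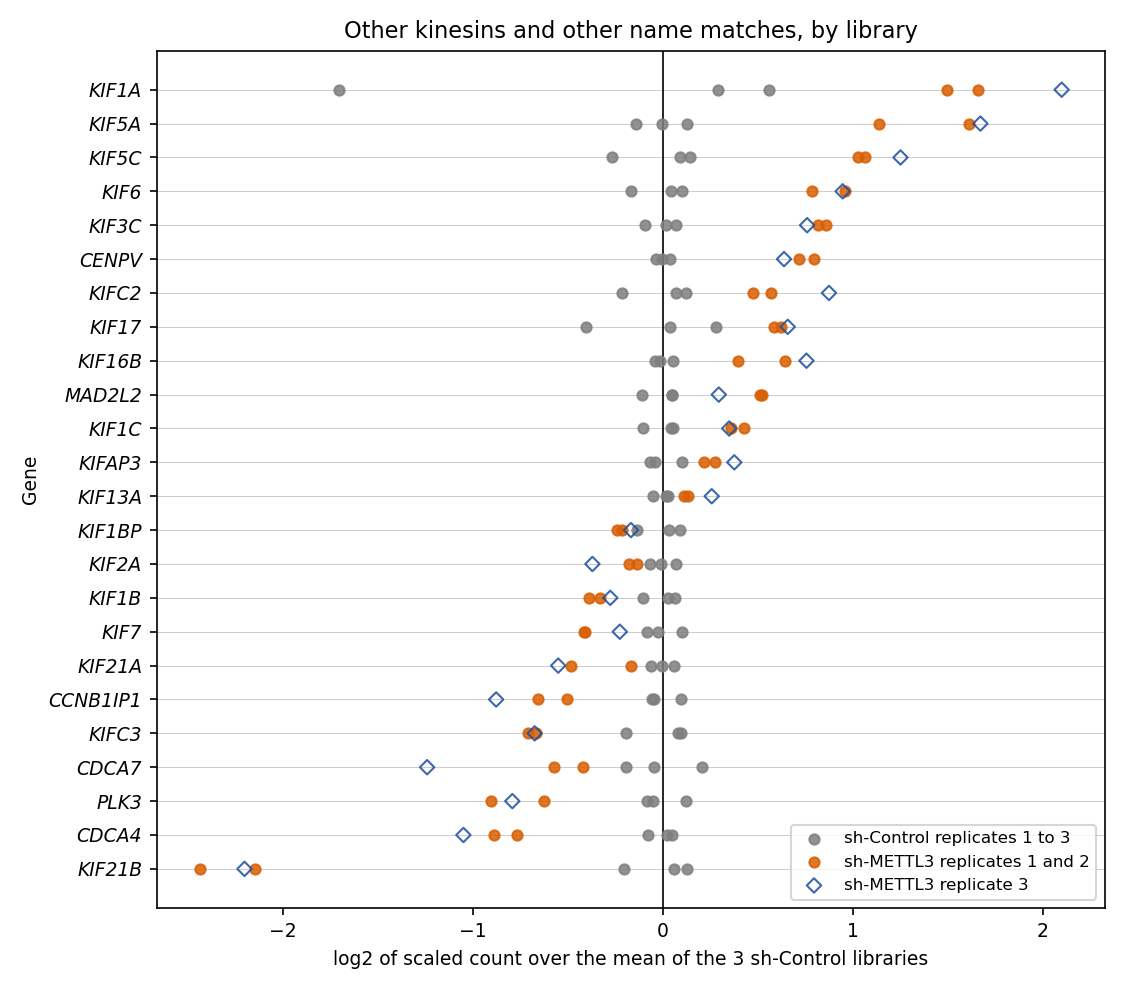
Scaled count of 18 of the 19 other kinesins and of the 6 other name matches in each library, as log2 over the mean of the 3 sh-Control libraries, ordered by log2 fold change, with the same symbols as for the mitotic genes; KIF26A, with 0 reads in each control, is not drawn. KIF21B lies near -2 in all 3 silenced libraries, and most open diamonds lie with the orange points, CDCA7 being farthest below them.

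Of the 6 other matches to the name, 4 fell and 2 rose. CDCA4, a regulator of E2F-driven transcription, fell from 762 ± 35.7 to 409.5 ± 39.8 (log2 fold change -0.90 ± 0.09, adjusted p = 3.4e-05). PLK3, a Polo kinase of the stress response, fell by 0.77 ± 0.09 (adjusted p = 0.00011), and CCNB1IP1, a ligase of meiotic crossovers, by 0.68 ± 0.10 (adjusted p = 0.00034). CDCA7, a chromatin factor of replicating cells whose promoter letters are printed above, read 544, 455 and 412 and then 317, 352 and 199. It fell by 0.73 ± 0.19 (adjusted p = 0.013) and its sh-METTL3 replicate 3 was 0.596 times the other 2, the lowest such ratio of the 6 genes, where the median of the 6 was 0.857 and 5 of them were below both others. Without that library the log2 fold change was -0.48, and the call was lost without sh-Control replicate 1 or 2 (adjusted p up to 0.074). MAD2L2, a subunit of the translesion polymerase zeta, rose by 0.45 ± 0.09 (adjusted p = 0.0029) and CENPV, a centromere protein linked to chromosome alignment and cytokinesis that was kept in this set, by 0.72 ± 0.12 (adjusted p = 0.00097).

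Other genes of the cell cycle, from lists of the pathway, are given by counts. Of 20 DNA replication genes 9 were listed, of which 7 were lower, none was higher and 2 did not pass (97.9% of all listed genes were called), with a median of -0.59. MCM10 and CDC6, which load and start the replication machinery, had log2 fold changes of -1.08 and -0.81, and PCNA, the sliding clamp, one of -0.44. All 9 had their lowest silenced value in the third library. Of 8 listed genes of the cohesin, securin and separase list 7 were lower and 1 did not pass, led by the cohesin acetyltransferase ESCO2 (-0.82), STAG2 (-0.55) and SMC1A (-0.54). Of 8 anaphase-promoting complex genes 6 were lower and 2 higher, the latter being the E2 enzyme UBE2S (0.45) and FZR1, and FBXO5, an inhibitor of that complex, was the lowest (-0.65). Of 4 condensin genes 2 were lower, NCAPD3 at -0.97, and 2 did not pass. None of the cohesin, condensin or replication genes was called higher, while 46.6% of all listed genes were. Without sh-METTL3 replicate 3, however, 1 condensin gene, SMC2 (0.64), and 1 cohesin protector, SGO2 (0.57), were called higher, and both had that library inside the control range.

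Of 5 listed genes of mitotic entry, NEK2, a kinase of centrosome splitting (0.60), CKS2, a CDK subunit (0.48), and GTSE1 (0.39) were called higher, MASTL, the Greatwall kinase (-0.50), was lower and 1 did not pass. In NEK2, CKS2 and GTSE1 the groups overlapped, as the third silenced library lay inside the control range (309, 629 and 581). Each passed in 9 of 17 alternatives, and without that library their log2 fold changes were 0.86, 0.69 and 0.57. Of 11 listed spindle, midbody and marker genes 2 were higher and 4 lower and 5 did not pass. Without sh-METTL3 replicate 3 the counts were 6 higher and 4 lower, with DLGAP5, RACGAP1, CIT and INCENP added to the higher ones. TACC3 rose by 0.51, ZW10 had a log2 fold change of -0.57, and OIP5, which helps to load CENPA, one of -1.24. OIP5 too lies on chromosome 15 beside NUSAP1 (chr15:41309268-41332621). Among 6 listed E2F, DREAM and MuvB regulators 4 were lower, with E2F7 at -1.05 and E2F6 at -0.70, TFDP2 was higher (0.43) and 1 did not pass. Of the G1 genes CDK6 (-1.18), CCNE2 (-0.80) and CCND3 were lower and CCNE1 (0.58) was higher, and the inhibitors CDKN1C (-1.57) and CDKN1B (-0.28) were lower. CDKN1A and CDKN2A were not analysed here.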

How the data were processed

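RNA was sequenced from 6 ARPE-19 libraries, 3 per group, grouped by the sample labels. Per the submitters' processing notes, HISAT2 2.0.5 and hg38 were used, while the study's methods name Cufflinks; the counter and strandedness are not given in the sources used here. The authors deposited a signal per gene and library, the read count divided by 1 size factor. 100% of values came out as whole reads within 0.01. The log2 fold change, p-value and adjusted p-value columns that the authors deposited, and their group means, were not used, except that the p-value columns gave the number of genes tested (22977) and showed that no listed gene exceeded 0.05. Starts and ends of all 7758 genes equal GENCODE 29, and 13 symbols turned into dates were replaced from it.

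Each scaled count plus 1 was put on the log2 scale, and all listed genes were fitted together in R 4.3.3 (limma 3.58.1, trend on intensity, no covariate); fold changes on this scale understate those of low genes. P-values (two-sided) were adjusted by Benjamini-Hochberg over 22977 tests, with a threshold of 0.05. Alternatives were edgeR 4.0.16 with RLE, TMM or listed-gene totals or the deposited size factors, DESeq2 1.42.0, limma-voom, a pseudocount of 0.1, a mean of at least 50, no trend, a replicate block, adjustment over listed genes, a threshold of 0.01, and leaving out each library. On simulated data of 7758 genes with 200 changed, limma recovered 198. Those 200 had a mean of at least 50 and a log2 change of 1, with the same dispersion for every gene and no replicate set apart. The simulation thus does not show how well smaller changes are found in these libraries. Replicates differed by more than sampling noise in every pair. Chi-square per degree of freedom was 17.6 and 16.6 in the pairs with sh-METTL3 replicate 3. It was 3.89 in the other sh-METTL3 pair and 6.58 to 11.6 among the controls. The members, lists and tests were chosen with earlier results of these data known, and the roles are textbook ones. Any listed member may be named, with values per library for METTL3, the kinases, the cyclins and CDC20, the checkpoint genes and the 5 largest rises and falls with a mean of at least 100; of each pathway list at most 3 with the largest change and PCNA. KIF18B and CDCA7 were given values per library beyond that rule, after these were seen. Named beyond it likewise are INCENP, GTSE1, FZR1, CCND3, TFDP2, SMC2, SGO2, DLGAP5, RACGAP1 and CIT. Promoters are from RefSeq (GRCh38.p14). Neighbours are listed genes within 5 Mb. Library depth is unknown, since reads outside the listed genes were not analysed here.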

Additional observations from a re-analysis of the deposited data

How the results depend on the processing

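No call among the 49 genes changed direction in any alternative run, which carries little weight because the table lists only called genes, the smallest with an absolute log2 fold change of 0.13. At a threshold of 0.01 the number of higher genes fell from 26 to 17. Over the fits that left out 1 library, 6541 to 7290 listed genes were called, 19 to 27 of the 49 were higher and 14 to 18 lower, and their median ranged from 0.33 to 0.48. METTL3 missed the threshold with RLE factors (-0.17, adjusted p = 0.26), with TMM factors (-0.25, 0.057), without the intensity trend (-0.30, 0.12) and at 0.01, and ranged from -0.38 to -0.18 with 1 library left out. In 22 of the 49 genes at least 1 alternative moved the call. Without the intensity trend the calls of BIRC5, BUB1, CDCA7, CENPE, CENPF, CENPK, KIF13A, KIF1BP, KIF2A and PLK1 were lost. Same-numbered libraries did not deviate together, with correlations of 0.0036, 0.019 and -0.015. Whether they were handled as pairs is not stated, and these correlations cannot settle it. With a replicate block the number of listed genes called was 7481, and 28 of the 49 were higher and 20 lower, CDCA3 being the 1 gene not called. The median over all genes moved by 0.043 on the log2 scale with TMM factors. The cause of the lost calls was not tested.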
